A study of Mus musculus with 4 samples.

Results

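The genes described here encode the proteins of tight junctions, desmosomes and gap junctions, the contacts that hold epithelial sheets together and let cells exchange small molecules. They were chosen by symbol: the numbered claudins other than Cldn5, occludin and its relatives, the zonula occludens scaffolds, the desmosomal cadherins and plaque proteins, Perp, Epcam, the plakins Eppk1, Evpl and Ppl, and those connexins of the Gja and Gjb classes whose number has a single digit. This gave 61 genes with 100 probes, of 27194 genes on the arrays. They comprised 22 claudins, 12 connexins, 9 desmosomal cadherins, 7 desmosomal plaque genes counting Perp, 7 other tight junction genes, 3 plakins and Epcam.

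The RNA came from pooled embryonic tissue of ICR mice, an outbred stock, with no genotype or treatment given for any pool, and each pool was hybridised to 1 single-colour Agilent array. MMA was median mandibular arch taken at E9.5, with 12 embryos in the pool. At E11.5 LLS held the lateral lingual swellings and LMA the lateral mandibular arch, each from 4 embryos, and T was median tongue of 4 embryos at E14.5. The lateral lingual swellings are outgrowths on the floor of the mandibular arch that form much of the tongue, and the lateral arch lies beside them. All pools came from pieces of tissue, which can hold epithelium together with mesenchyme, muscle cells or their progenitors, vessels and nerve. In such pools fewer cells of a type and less RNA per cell cannot be told apart. There were no replicates, so differences are described by size, with no p-value and no SD between samples, and a difference between pools cannot be told apart from a difference between tissues. LLS and LMA differ from MMA in stage, in position and in embryos per pool, and T differs from LLS in stage and position. Within each of these comparisons such factors cannot be told apart.

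Tight junctions seal the space between neighbouring epithelial cells. Claudins are their membrane proteins and set which ions pass, occludin and the tricellulin family join them in the membrane, and the zonula occludens proteins anchor them to actin. Desmosomes join keratin filaments of adjacent cells through cadherins of the desmoglein and desmocollin classes, which bind plakoglobin, plakophilins and desmoplakin inside the cell. Connexins form gap junctions. During development the simple covering of the oral cavity becomes a stratified epithelium, in which desmosomes are abundant and plakins are later built into the cornified envelope.

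Each level below is a scaled signal in arbitrary units: the processed signal of the gene's brightest probe, with the 75th percentile of each array brought to a common value of 468. Levels of different genes come from different probes and are not compared with each other. Differences are of log2 signal, the tissue named first minus the tissue named second, so that 1 is 2-fold. Signals well above background were found for 53 of the 61 genes in at least 1 tissue and for 37 in all 4. The number detected was 43 (MMA), 44 (LLS), 44 (LMA) and 48 (T). Among the 8 genes not well above background anywhere were Cldn2, Cldn14, Cldn16, Cldn17, Cldn19, Dsc1 and Dsg4. Where a probe was not well above background in the dimmer tissue, the dim side was set to the higher of its own signal and the lowest well-above-background signal of that array, which was 24.6 (MMA), 21.9 (LLS), 18.6 (LMA) and 25.4 (T), and the fold is then a bound written as "at least". Between 57.0% and 62.9% of the spots of an array were well above background and 0 were saturated. Of the probes printed 10 times per array, 291 were well above background in every spot. Their single-spot differences had an SD of 0.05 to 0.07 on the log2 scale, which does not cover dim probes. The scanner software's own error estimate for a junction gene difference past 2-fold was larger, 0.20 for the brightest probes and up to 0.36 for the dim probe of Marveld3.

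**Figure D1:**
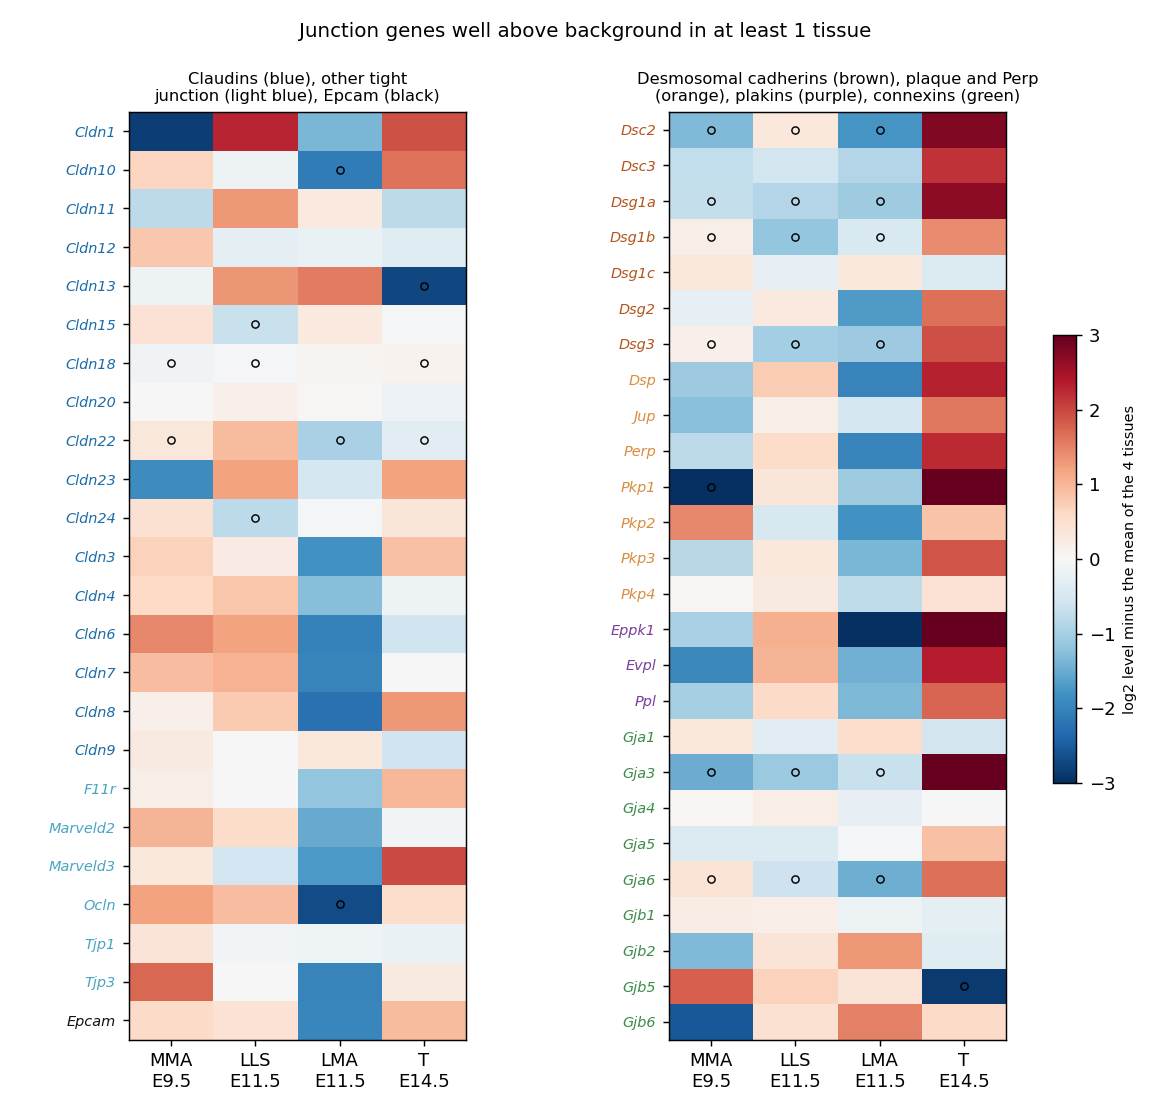
Level of 50 junction genes well above background in at least 1 tissue, as the log2 level minus the mean of its 4 tissues, with MMA, LLS, LMA and T from left to right and genes coloured by role. Open circles mark tissues where the probe was not well above background. The LMA column is blue for many claudins, Epcam, Tjp3 and the plakin Eppk1, and the T column is red for most desmosomal genes and the plakins.

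In LLS against LMA, tissues of the same stage, 26 of the 47 junction genes compared had a signal 2-fold higher or more in LLS and 1 a signal 2-fold lower or more. The shares over all genes compared were 3.62% higher and 2.88% lower, and the junction genes' median difference was 1.15, against 0.01 for all genes. Among the 26 higher genes were, in order of size, Eppk1, Cldn1, Cldn6, Cldn7, Cldn8, Dsp, Perp, Evpl, Epcam, Cldn4, Marveld2, Cldn3, Dsg2, Tjp3, Ppl, Cldn10, Cldn23, Pkp3, Pkp1, Pkp2, Ocln, F11r, Marveld3, Pkp4 and Cldn11. The single lower gene was Gjb6. The roles differed: 9 of 17 claudins, 5 of 7 other tight junction genes, 6 of 7 plaque genes and 3 of 3 plakins were higher, while 1 of 3 desmosomal cadherins was higher, and among 9 connexins 1 was higher and 1 lower. Under at least 1 other scaling or in the authors' value table Cldn11, Gjb6, Marveld3 and Pkp4 each fell below 2-fold, and with another background correction (normexp) Cldn10, Ocln and Pkp1 did as well.

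In LMA against MMA the junction genes were more often lower than higher: 19 of 46 were at least 2-fold lower in LMA, where the share over all genes was 7.16%, and 8 were at least 2-fold higher, where it was 10.5%. The median was -0.52, against -0.09 for all genes. Lower were 7 of 16 claudins, 5 of 7 other tight junction genes and Epcam. Among the 8 higher genes were Gjb6, Gjb2, Pkp1, Cldn13, Cldn1, Cldn23 and Cldn11, and with the normexp correction 3 genes were past 2-fold higher and 15 lower. Cldn12, Cldn11 and Perp fell below 2-fold under other scalings, and with normexp Cldn1, Cldn13, Cldn23, Gjb5, Marveld3, Ocln and Pkp1 did as well.

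In LLS against MMA, 15 of 46 genes reached 2-fold higher and 7 reached 2-fold lower, beside 9.68% and 5.59% over all genes. The median was 0.10, against -0.06 for all genes. The split by role was uneven, with 5 of 7 plaque genes and 3 of 3 plakins higher, while 0 of 7 other tight junction genes were higher and 1, Tjp3, was lower. Without scaling of the arrays the counts were 15 higher and 3 lower, and Cldn12, Cldn15, Cldn24 and Gjb5 fell below 2-fold under scalings other than the main one. With normexp Cldn13, Jup and Pkp3 did too.

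In T against LLS, 17 of 52 genes reached 2-fold higher and 6 reached 2-fold lower, beside 12.8% and 6.03% over all genes. The median was 0.37, against -0.07 for all genes. By role, 6 of 7 plaque genes, 4 of 7 desmosomal cadherins and 3 of 3 plakins were higher, and among claudins 1 of 16 was higher and 4 were lower. The contrast between roles was not tested, and 4 of the 7 cadherins (Dsc2, Dsg1a, Dsg1b and Dsg3) were detected in T alone, so they could differ in that direction only and gave 2 of the 4 calls. With the normexp correction the counts were 16 higher and 3 lower: Cldn7, Cldn13, Dsc2, Dsg1a and Gjb5 fell below 2-fold, and 1 gene not counted before passed it. LLS stands in 3 of these 4 comparisons and MMA and LMA in 2 each, so the comparisons are not independent of each other.

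**Figure D2:**
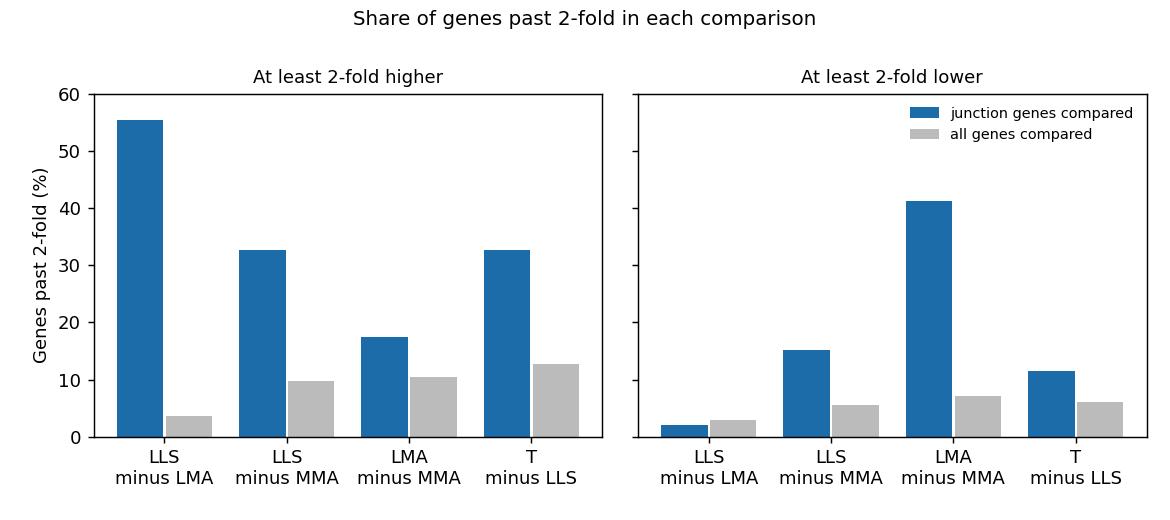
Percentage of genes at least 2-fold higher (left panel) or lower (right panel) in the tissue named first, for junction genes (blue) and all genes compared (grey), in the 4 comparisons. The tallest blue bars are the 55.3% higher in LLS minus LMA and the 41.3% lower in LMA minus MMA.

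Among claudins, the largest group followed 1 shape, high in MMA and LLS, low in LMA and intermediate or high again in T. Cldn6, an early embryonic epithelial claudin, had a scaled signal of 818 (MMA), 695 (LLS), 73.7 (LMA) and 199 (T). It was thus 9.44-fold higher in LLS than in LMA (log2 3.24), differed by -0.23 between LLS and MMA, and was 3.50-fold lower in T than in LLS (log2 -1.81). Cldn7, widespread in simple and stratified epithelia, read 1658 (MMA), 1808 (LLS), 217 (LMA) and 884 (T). Its LLS signal was 8.32-fold that of LMA, and its T signal was lower than that of LLS by 1.03 on the log2 scale, a size that fell below 2-fold under other settings.

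Cldn8 read 256 (MMA), 395 (LLS), 48.7 (LMA) and 567 (T), and Cldn8 was 8.10-fold higher in LLS than in LMA. Cldn3 read 393 (MMA), 286 (LLS), 68.9 (LMA) and 449 (T). Cldn4, which lies between Cldn13 and Cldn3 on chromosome 5, read 142 (MMA), 166 (LLS), 39.0 (LMA) and 85.0 (T). Cldn3 and Cldn4 were both more than 4-fold higher in LLS than in LMA, with log2 differences of 2.05 and 2.09. In T against LLS, however, Cldn3 stood at 0.65 and Cldn4 at -0.97. Cldn10 read 120 (MMA), 68.9 (LLS) and 237 (T) and was not well above background in LMA, so that it was at least 3.72-fold higher in LLS than in LMA. Cldn10 was the single claudin at least 2-fold higher in T than in LLS (log2 1.78).

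Several claudins did not share this shape. Cldn1, a claudin required for the skin barrier in mice, read 30.5 (MMA), 1043 (LLS), 82.7 (LMA) and 803 (T). It was 34.2-fold higher in LLS than in MMA, the largest difference of any junction gene in that comparison, and 12.6-fold higher in LLS than in LMA, while T and LLS differed by -0.38. Cldn23 was similarly low in MMA, with 29.2 (MMA), 246 (LLS), 74.4 (LMA) and 248 (T), an 8.42-fold difference between LLS and MMA. Cldn11, known from myelin and from Sertoli cells, was highest in LLS, with 36.7 (MMA), 156 (LLS), 76.7 (LMA) and 35.7 (T). It was 4.25-fold higher in LLS than in MMA and 4.36-fold lower in T than in LLS. Cldn13 read 30.6 (MMA), 84.8 (LLS) and 99.7 (LMA) and was not well above background in T, at least 3.34-fold lower there than in LLS.

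The remaining claudins were flat or dim. Cldn12 was bright in every tissue, with 4794 (MMA), 2285 (LLS), 2393 (LMA) and 2144 (T), and only its MMA level stood apart (log2 -1.07 in LLS minus MMA). Cldn20 stayed between 57.0 in T and 71.1 in LLS. Cldn9, whose probe lies 1.08 kb from that of Cldn6, read 67.2 (MMA), 56.0 (LLS), 68.4 (LMA) and 36.3 (T), with a difference of -0.29 between LLS and LMA where Cldn6 had 3.24. Cldn15 and Cldn24 were near the detection limit, with highest signals of 48.3 and 45.5, both in MMA. Cldn18 was well above background only in LMA, at 24.1, and Cldn22 only in LLS, at 25.8. Neither passed 2-fold in a comparison.

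Bases in front of genes with the LMA-low shape are shown because these genes form the largest group with a common profile. They were searched for CACCTG, the E-box that repressors of the Snail and Zeb families are known to bind in epithelial genes, read on both strands (CAGGTG on the other strand). A promoter window of 250 bases before the RefSeq start (GRCm38.p6) was on hand for 36 of the 61 genes, and 12 of these 36 (33.3%) held the motif, against 19.4% of 27025 genes and 17.2% of 32851 promoters overall. Of the 13 genes that were low in LMA alone by the outlier step given below, 9 had a window and 6 of these held it: Cldn4, Cldn6, Cldn7, Epcam, F11r and Tjp3. The E-box was not the most frequent motif in these 9: the GC box GGGCGG was in 8 of them, against 35.4% of all genes. These 13 were picked by their signals, the number is small, and a match is a description of the letters only. The windows of 4 genes with the motif and that of Cldn3 without it are printed 5′ to 3′ on the strand of the gene, ending at the base before the RefSeq start, with the motif in capitals. They lie at chr5:134985964-134986213 on the + strand for Cldn3, chr5:134946935-134947184 on the - strand for Cldn4, chr17:23679115-23679364 on the + strand for Cldn6, chr11:69965171-69965420 on the + strand for Cldn7 and chr17:87635729-87635978 on the + strand for Epcam.
Cldn4: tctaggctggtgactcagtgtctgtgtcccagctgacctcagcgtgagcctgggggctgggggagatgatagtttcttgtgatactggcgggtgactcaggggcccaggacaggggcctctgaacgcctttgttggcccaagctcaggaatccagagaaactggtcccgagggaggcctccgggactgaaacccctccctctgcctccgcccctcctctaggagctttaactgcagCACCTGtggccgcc
Cldn6: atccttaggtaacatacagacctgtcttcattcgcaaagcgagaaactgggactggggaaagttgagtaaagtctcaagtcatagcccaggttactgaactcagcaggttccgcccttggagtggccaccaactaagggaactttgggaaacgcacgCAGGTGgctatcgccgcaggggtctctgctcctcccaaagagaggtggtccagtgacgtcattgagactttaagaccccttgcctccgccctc
Cldn7: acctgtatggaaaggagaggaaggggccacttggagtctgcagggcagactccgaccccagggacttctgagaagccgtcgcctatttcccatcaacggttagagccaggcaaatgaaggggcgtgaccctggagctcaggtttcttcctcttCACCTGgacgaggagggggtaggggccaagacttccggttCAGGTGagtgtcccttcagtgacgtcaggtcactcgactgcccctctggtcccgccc
Epcam: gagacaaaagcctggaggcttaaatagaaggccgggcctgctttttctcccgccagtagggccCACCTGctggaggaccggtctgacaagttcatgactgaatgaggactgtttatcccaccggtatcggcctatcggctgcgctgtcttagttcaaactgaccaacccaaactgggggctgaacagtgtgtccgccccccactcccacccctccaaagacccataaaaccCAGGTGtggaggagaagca
Cldn3: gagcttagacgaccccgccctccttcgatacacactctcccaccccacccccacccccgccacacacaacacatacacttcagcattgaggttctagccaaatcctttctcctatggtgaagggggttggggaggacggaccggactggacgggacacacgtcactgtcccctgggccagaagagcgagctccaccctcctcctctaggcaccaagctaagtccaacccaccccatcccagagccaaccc
The motif began 14 bases before the start in Cldn4 and 93 before it in Cldn6. In Cldn7 it stood 97 and 57 bases before the start, while a second RefSeq promoter of Cldn7 had none, and in Epcam 187 and 19 bases before it. The Cldn3 window held no CACCTG. It held GGGCGG, a GC box found on either strand in 21 of the 36 genes, 35.4% of all genes and 32.7% of all promoters, and GGGTGGGG, a motif of Klf factors found in 7 of the 36 genes, 10.3% of all genes and 9.05% of all promoters. TATAAA was found in 5 of the 36 genes, 14.3% of all genes and 12.4% of all promoters. AACCNGTT, a motif of the Grainyhead-like epithelial factors, was found in 1 of the 36 genes, Gjb6, and in 2% of all genes and 1.79% of all promoters. Of the 9 LMA-low genes with a window, 8 held GGGCGG, 2 GGGTGGGG, 1 TATAAA and 0 AACCNGTT, beside 6 with CACCTG. All motifs were read on both strands, and none of them contains another.

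The tight junction genes outside the claudin family differed by kind. The zonula occludens scaffold Tjp1 was bright and nearly level, with 2147 (MMA), 1562 (LLS), 1508 (LMA) and 1439 (T). It passed 2-fold in 0 of the 4 comparisons, and its LLS minus LMA difference was 0.05. The scaffold Tjp3, which is restricted to epithelia, read 843 (MMA), 257 (LLS), 64.6 (LMA) and 311 (T). Tjp3 was 3.98-fold higher in LLS than in LMA and 13.1-fold lower in LMA than in MMA, and its second probe gave log2 values of 1.09 and -2.93 for the same pairs.

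Marveld2 encodes tricellulin, the protein of the corners where 3 cells meet. It read 626 (MMA), 449 (LLS), 108 (LMA) and 289.9 (T), a 4.15-fold difference between LLS and LMA. Marveld3, of the same family, was highest in T instead, with 84.5 (MMA), 45.1 (LLS), 20.4 (LMA) and 265 (T), and was 5.86-fold higher in T than in LLS. F11r, the junctional adhesion molecule A, read 2367 (MMA), 2082 (LLS), 914 (LMA) and 4154 (T). Its log2 difference was 1.19 in LLS minus LMA and 0.997 in T minus LLS, the second just under 2-fold. Occludin (Ocln) was dim, with 56.8 (MMA), 46.7 (LLS) and 35.1 (T), and not well above background in LMA, where it was at least 2.52-fold lower than in LLS. Epcam, an epithelial adhesion protein that binds and stabilises Cldn7, read 504 (MMA), 462 (LLS), 88.0 (LMA) and 658 (T), so that LLS was 5.25-fold higher than LMA while LLS and MMA differed by -0.12.

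**Figure D3:**
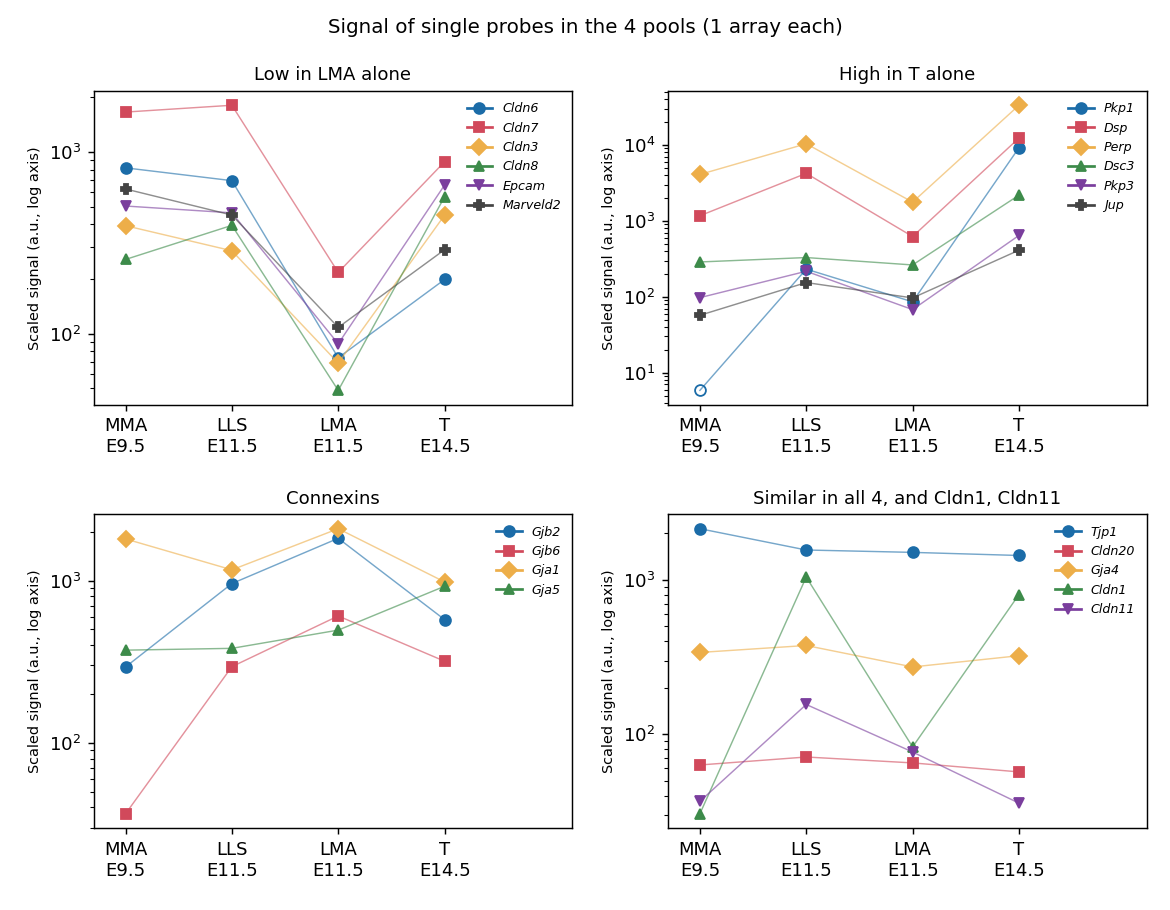
Scaled signal (arbitrary units, log axis) of single probes in the 4 pools, 1 array each, with genes low in LMA alone, genes high in T alone, connexins, and level genes beside Cldn1 and Cldn11. Open markers were not well above background, lines only join the points of a gene, and heights of different genes are not comparable. Cldn6 stands at 818, 695, 73.7 and 199 in MMA, LLS, LMA and T, and Pkp1 reaches 9179 in T against 231 in LLS.

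The desmosomal cadherins were few before E14.5. Of 9 genes, 3 were well above background in MMA, LLS and LMA, and 7 in T. Dsg2, the desmoglein of simple epithelia and heart muscle, was present throughout, with 927 (MMA), 1362 (LLS), 339 (LMA) and 3477 (T). Dsg2 was 4.01-fold higher in LLS than in LMA and 2.55-fold higher in T than in LLS, and a second usable probe gave at least 1.63 (not well above background in LMA) and 1.13 on the log2 scale for these pairs. Dsc3, a desmocollin of the basal layers of stratified epithelium, read 287 (MMA), 328 (LLS), 262 (LMA) and 2179 (T). With this brightest probe the 3 earlier tissues lay close together, with 0.32 between LLS and LMA, and T stood 6.63-fold above LLS. The other Dsc3 probes were well above background in T alone, at 148 and 63.0. They gave bounds of 2.76 and 1.53 on the log2 scale in T minus LLS, so the Dsc3 level before E14.5 is uncertain.

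Dsc2 was well above background in T alone, at 95.5, at least 4.37-fold higher than in LLS. Dsg1a, a desmoglein of the upper layers of stratified epithelium, was also detected in T alone, at 63.2, at least 2.89-fold higher than in LLS. Dsg1b and Dsg3 were likewise detected only in T, at 29.7 and 34.9, which sets no bound past 2-fold. Dsg1c read 106 (MMA), 69.5 (LLS), 104 (LMA) and 62.7 (T). That probe also lists an accession of Dsg1b, the 3 Dsg1 genes are close paralogs and the other Dsg1c probe was dim, so the Dsg1c level is uncertain. All desmosomal cadherin genes here lie in a single cluster on chromosome 18, and the members of this cluster did not share a profile. By their brightest probes Dsg2 and Dsc3, at its ends, were measured in all 4 tissues, and Dsc1 and Dsg4 in none.

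Most of the 7 plaque genes, counting Perp, were at least 2-fold higher in LLS than in LMA (6), in LLS than in MMA (5) and in T than in LLS (6). Desmoplakin (Dsp), which ties the plaque to keratin, read 1167 (MMA), 4219 (LLS), 621 (LMA) and 12305 (T). Dsp was 6.79-fold higher in LLS than in LMA, 3.62-fold higher in LLS than in MMA and 2.92-fold higher in T than in LLS. Perp, a membrane protein needed for desmosome assembly in stratified epithelium, had the same order of tissues, with 4081 (MMA), 10355 (LLS), 1763 (LMA) and 33278 (T). Perp was 5.87-fold higher in LLS than in LMA and 3.21-fold higher in T than in LLS.

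Plakophilin 1 (Pkp1), the plakophilin of stratified epithelium, showed the widest range. It was not well above background in MMA and read 231 in LLS, 85.8 in LMA and 9179 in T. The T signal was 39.7-fold that of LLS, the largest difference of a junction gene in that comparison, and LLS was at least 9.40-fold higher than MMA. Plakophilin 3 (Pkp3) read 97.4 (MMA), 217 (LLS), 67.8 (LMA) and 643 (T), and plakoglobin (Jup) read 57.0 (MMA), 154 (LLS), 96.5 (LMA) and 411 (T). Pkp3 and Jup were 2.97-fold and 2.67-fold higher in T than in LLS. A second Jup probe, detected only in T, gave a bound of 0.90 on the log2 scale.

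Plakophilin 2 (Pkp2), found in simple epithelia and heart, ran differently from Pkp1 and Pkp3. It read 1366 (MMA), 359 (LLS), 143 (LMA) and 911 (T), and was thus 3.80-fold lower in LLS than in MMA. Its other 2 probes were not well above background in LLS and give only bounds there, at least 0.73 and 0.79 lower on the log2 scale. Pkp2 was 2.54-fold higher in T than in LLS. Plakophilin 4 (Pkp4), which is not confined to desmosomes, read 6117 (MMA), 6984 (LLS), 3416 (LMA) and 7897 (T). The LLS minus LMA difference of Pkp4 was 1.03 with this probe, and 0.92 and 0.98 with the 2 other probes measured in both tissues.

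The plakins, linker proteins of the keratin network, were highest in T and second highest in LLS, as Dsp was. Epiplakin (Eppk1) read 102 (MMA), 422 (LLS), 21.3 (LMA) and 1772 (T). Its 19.8-fold difference between LLS and LMA was the largest of any junction gene there, its second probe, not well above background in LMA, gave at least 3.58 on the log2 scale beside 4.31 with the main probe, and the LMA signal lay just above the detection limit. Envoplakin (Evpl) read 246 (MMA), 1895 (LLS), 345 (LMA) and 4818 (T), and was 5.49-fold higher in LLS than in LMA and 7.69-fold higher in LLS than in MMA. Periplakin (Ppl), its partner in the cornified envelope, read 143 (MMA), 424 (LLS), 111 (LMA) and 954 (T). All 3 plakins were higher in T than in LLS, by log2 differences between 1.17 for Ppl and 2.07 for Eppk1.

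**Figure D4:**
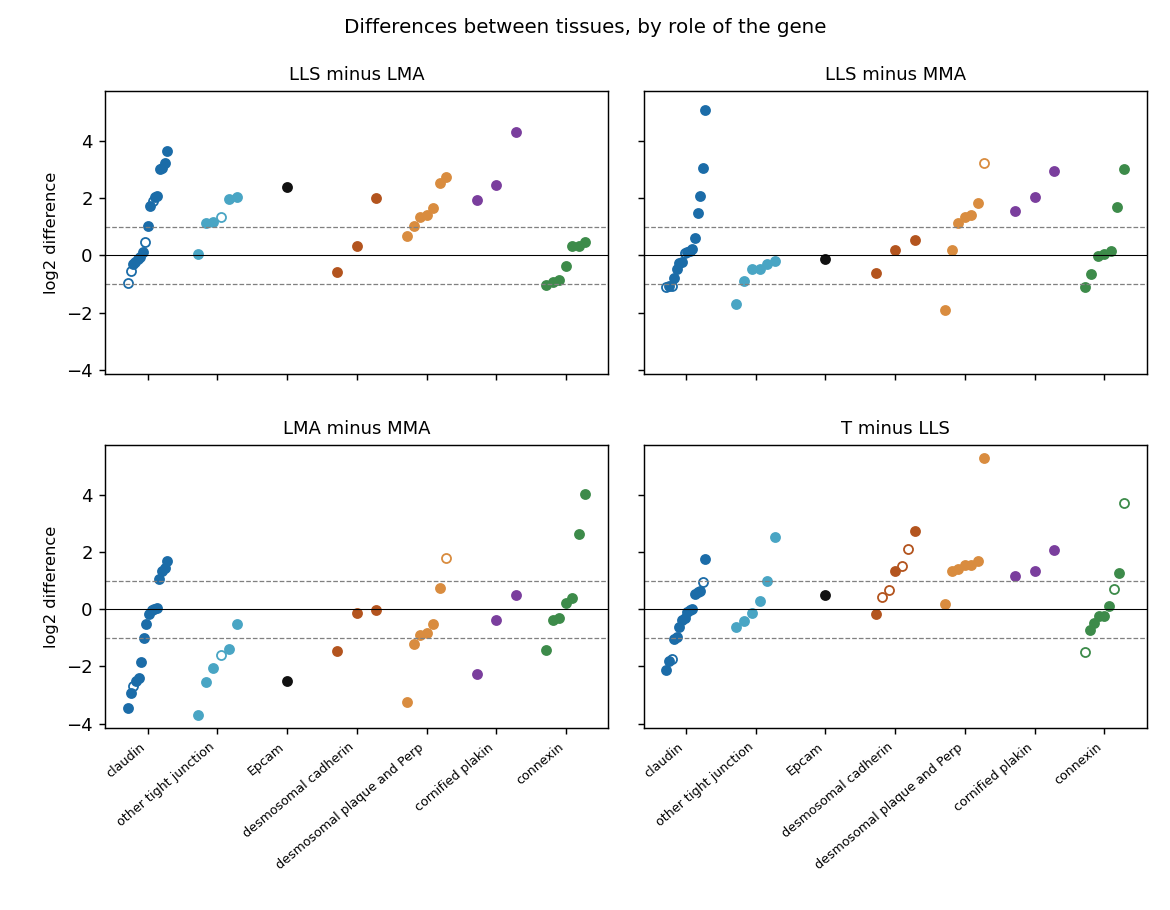
Log2 difference of the junction genes named in the text that could be compared, grouped and coloured by role, in the 4 comparisons, with dashed lines at 2-fold and open circles for bounds. In LLS minus LMA all 3 plakins and 6 of 7 plaque genes lie above the upper line, and in T minus LLS the claudins lie between -2.12 and 1.78 while Pkp1 reaches 5.31.

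Connexins had no common shape. Gja1, the most widespread connexin, read 1808 (MMA), 1165 (LLS), 2090.2 (LMA) and 981 (T), and its LLS minus LMA difference of -0.84 ranged from -0.70 to -1.13 over the 5 of its 8 probes measured in both tissues. The neighbours Gjb2 and Gjb6, a pair known for its part in the inner ear and skin, were highest in LMA. Gjb2 read 293 (MMA), 959 (LLS), 1823 (LMA) and 575 (T), and Gjb6 read 36.5 (MMA), 295 (LLS), 606 (LMA) and 318 (T). Against LMA, LLS stood at -0.93 for Gjb2 and at -1.04 for Gjb6, the single gene at least 2-fold lower there. Against MMA, LMA was 6.22-fold higher for Gjb2 and 16.6-fold higher for Gjb6. Their probes lie 24.5 kb apart on chromosome 14, and Gja3, whose probe lies 64.0 kb from that of Gjb2, was well above background in T alone, at 289. By this brightest probe Gja3 was at least 13.2-fold higher in T than in LLS. Its other probe was well above background in LMA (33.6) as well as in T (63.1). In T minus LLS that probe gave a bound of 1.53 on the log2 scale.

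Gjb5, an epidermal and placental connexin, read 154 (MMA), 72.0 (LLS) and 57.8 (LMA) and was not well above background in T. It was at least 2.83-fold lower in T than in LLS. Gja4, a vascular connexin, stayed between 273 in LMA and 376 in LLS. Gja5, found in arteries and the heart conduction system, read 373 (MMA), 382 (LLS), 495 (LMA) and 923 (T), but its other usable probe gave 0.09 in T minus LLS where this one gave 1.27. Gjb1 lay between 83.0 in T and 116 in MMA, and Gja6 was well above background in T alone, at 36.3.

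To place each gene by the tissue that stood apart, the outlier step of ROKU, a method for tissue-specific genes based on an information criterion, was applied with at most 1 outlier of the 4 tissues. A distance of 2-fold or more to the nearest of the other tissues was required as well. Of the 53 detected junction genes, 13 were low in LMA alone (24.5%), against 0.845% of the 18706 genes detected. They were Cldn3, Cldn4, Cldn6, Cldn7, Cldn8, Cldn10, Dsg2, Epcam, Eppk1, F11r, Marveld2, Pkp2 and Tjp3. Another 11 were high in T alone (20.8%, against 8.17% of all genes): Dsc2, Dsc3, Dsg1a, Dsp, Gja3, Jup, Marveld3, Perp, Pkp1, Pkp3 and Ppl. Of these, Dsc2, Dsg1a and Gja3 were detected in T alone by their brightest probes, so they could be placed in this class only. The other Gja3 probe was detected in LMA as well, at 33.6 against 63.1 in T, less than 2-fold apart. The share of all genes was counted the same way. Cldn12 was among the genes high in MMA alone, Cldn23 and Gjb6 were low in MMA alone, Cldn11 was high in LLS alone and Gjb5 was low in T alone, for which the shares of all genes were 2.5%, 4.16%, 0.326% and 2.53%. None of the junction genes was low in LLS alone or high in LMA alone, beside 0.0909% and 0.674% of all genes. The LMA-low class holds 6 of the claudins and the T-high class none.

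By median, general epithelial markers went in the same direction as the junction genes in all comparisons but LLS against MMA, and the sizes differed. Of 19 pan-epithelial genes, among them Cdh1, Esrp2 and Krt8, 18 were compared in LLS against LMA and 15 reached 2-fold higher, with a median of 2.27 and a summed signal of 35901 in LLS against 10444 in LMA. In LMA against MMA 13 of 18 were lower, with a median of -2.34 and sums of 10444 and 71948, and Krt8 was lower by 4.64 on the log2 scale. In LLS against MMA 4 were higher and 4 lower, and in T against LLS 4 were higher, with sums of 50191 and 35901. None was at 0, and Ovol1 was not well above background in any tissue. The sums weigh bright probes most, such as those of Krt18 (13510) and Krt8 (6212) in LLS. In LLS against MMA they were 35901 and 71948 beside a median of -0.34, so they do not stand for the list as a whole. The part of the pan-epithelial genes in the junction gene differences was not tested. Set against the median of these markers, only Cldn1 and Eppk1 lay at least 2-fold above it in LLS minus LMA and 25 of 47 junction genes lay at least 2-fold below it, counting Cldn22, whose difference is only a lower bound and so cannot be placed. In LMA minus MMA, 29 of 46 lay 2-fold or more above the marker median and 3 lay below it, Cldn6 and Tjp3 among them. In LLS minus MMA, 15 junction genes lay 2-fold above the marker median, among them Cldn1, Dsp, Perp and the 3 plakins, and 3 lay 2-fold below, Pkp2 and Tjp3 among them. In T minus LLS, 11 lay above, 8 of them genes of desmosomes and plakins, and 11 lay below, among them Cldn4, Cldn6 and Cldn7.

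Markers of stratified epithelium and periderm, the flat outer cell layer of the embryo, moved with the T and LLS results. In T against LLS 12 of 15 were at least 2-fold higher, with a median of 2.94, Krt6a at 6.39 and Krt17 at 6.10, while Grhl3 stood at -1.26. In LLS against MMA 9 of 14 were higher, with Krt5 at 6.02, and in LLS against LMA 9 of 15. In LMA against MMA 2 were higher and 1 lower. Snail, Zeb and Twist genes, the repressors of epithelial genes, had 0 of 6 past 2-fold in LLS against LMA (median -0.29). In LLS against MMA 1 of 6 was higher, in LMA against MMA 2 were higher, and in T against LLS 3 were lower, among them Twist1 at -2.06.

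The pools also differed in other cell types. Of the skeletal muscle genes 9 of 10 were lower in LLS than in LMA, and 11 of 11 were higher in T than in LLS, with a median of 6.99. Against MMA they were higher for 9 of 10 in LMA, with a median of 4.90, and for 8 of 9 in LLS. Of the endothelial genes 4 of 13 were lower in LLS than in LMA, with a median of -0.85. Of the cardiac list, which includes genes that skeletal muscle also uses, 1 of 6 was lower in LLS than in LMA. In T against LLS 4 of 8 cardiac genes were higher and 1 lower. Mesenchyme genes were higher in LMA than in MMA for 7 of 9 and in LLS than in MMA for 5 of 9. In LLS against LMA 2 mesenchyme genes were higher and 1 lower, and in T against LLS 3 were higher and 3 lower. Of the Schwann and glia list 1 of 7 was higher in LLS than in LMA, and of the neuron and macrophage lists 0 of 8 each passed 2-fold there. In T against LLS 5, 2 and 6 of 8 genes of these 3 lists were higher, and 2 neuron genes were lower. Macrophage genes were higher than in MMA for 7 of 8 in LMA and for 6 of 8 in LLS. The part of these cell types in the junction gene differences was not tested. Since the labels mention cerebellum at the extraction step, 10 cerebellum markers were read as well: Atoh1, Calb1, Gabra6, Neurod1 and Zic2 were not well above background in any tissue, and Pcp2 alone stood out, with 599 in LLS and 1439.5 in LMA, beside 51.8 in MMA and 41.1 in T.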

How the data were processed

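Per the labels, RNA of pooled tissue was hybridised to single-colour Agilent arrays, 1 per tissue, all on 1 slide. Intensity was deposited as scanner output of Agilent Feature Extraction 10.7.1.1, per the file headers (the submitters' processing notes list 9.5.1.1), with background subtraction and no scaling between arrays, and positions are mm9. The deposited value table also holds intensity, normalised between arrays by a method not given in the sources used here, and served as an alternative.

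Control and flagged spots were left out, repeated spots averaged, and 56601 probes kept. Names came from RefSeq accessions (32907 probes), the file (12780), synonyms (520) or the selection rule (101), and 10293 had none. Log2 of the processed signal minus the 75th percentile of the array was compared, with the brightest probe for each gene, where at least 1 tissue of a pair was well above background. With 1 array per tissue no difference between tissues was tested, and genes were counted at 2-fold in 4 comparisons. Python 3.11.15, pandas 2.3.3 and limma 3.58.1 in R 4.3.3 were used, the counting was checked on simulated arrays, and promoter windows came from RefSeq (GRCm38.p6). Alternatives were no scaling, quantile and cyclic loess normalisation, normexp (offset 50), no filter, the median over probes, the value table, and thresholds of 1.5-fold and 4-fold. Any junction gene could be named, those past 2-fold by size and up to 20 in a direction (more were listed in LLS against LMA, an exception made after seeing the count), and in other lists the 2 largest measured differences in each direction. Krtdap was named as a bound, outside that rule. Lists of other junction types, epithelium, repressors, mesenchyme, muscle, heart, vessels, nerve, macrophages and cerebellum were read beside them, with 187 of 188 entries found. Some genes count in the totals, but their values are not reported here. Members and lists were chosen with earlier results of these data known.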

Additional observations from a re-analysis of the deposited data

How the results depend on the processing

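All 99 gene differences past 2-fold kept their direction under the 7 alternative settings that give a value per gene, 693 values in all. These settings reprocess the same 4 arrays, and differences past 2-fold were unlikely to change sign, so this is weak support. Values that moved by more than the single-spot SD numbered 99 of 99 without scaling, 93 with normexp and 13 without the filter. The counts of junction genes past 2-fold moved by no more than 1.5 times except as follows. At a 4-fold threshold 13 were higher and 0 lower in LLS against LMA, 8 and 1 in LLS against MMA, 3 and 12 in LMA against MMA, and 6 and 2 in T against LLS, and 9 in place of 30 junction genes stood apart in 1 tissue. At a 1.5-fold threshold the lower counts were 4 in LLS against LMA, 11 in LLS against MMA and 10 in T against LLS. With normexp the lower counts were 0, 4 and 3 in these comparisons, and 3 genes were higher in LMA against MMA. Without scaling 3 genes were lower in LLS against LMA and 3 in LLS against MMA, with cyclic loess 0 and without the filter 3 were lower in LLS against LMA. Leaving out the scaling shifted the median of all genes by -0.15 in LLS minus LMA, 0.11 in LLS minus MMA, 0.26 in LMA minus MMA and 0.11 in T minus LLS, and cyclic loess shifted it by 0.11, 0.14 and 0.15 in the last 3. Leaving out the filter shifted it by -0.11 in LLS minus MMA and 0.16 in T minus LLS. The causes of these moves were not tested. Of the calls, 20 of 27, 14 of 22, 17 of 27 and 17 of 23 held under all 7 alternatives in LLS against LMA, LLS against MMA, LMA against MMA and T against LLS. Where a called gene had another usable probe, that probe had the same direction in all cases, and it was also past 2-fold in 4 of 5, 2 of 3, 5 of 6 and 7 of 9, some of these values being bounds. Signals near background limit what can be said of dim genes such as Ocln, Cldn15, Cldn24 and the Dsg1 genes. No paired analysis was possible because each tissue had a single pooled array.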

Other observations

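Genes of other cell contacts were read beside the junction genes, from lists that share no member with them. Hemidesmosome genes, which anchor epithelium to the basement membrane, were at least 2-fold higher in T than in LLS for 7 of 9, with a median of 2.37, and 0 were lower. Col17a1 stood at 4289.8 in T against 183 in LLS (log2 4.55) and Lama3 at 1514 against 86.6 (log2 4.13). In LLS against LMA 4 of 9 were higher, with Lamb3, a chain of laminin, at 168 in LLS against 30.5 in LMA (log2 2.46). In LLS against MMA 4 were higher, with Itgb4 at 2.59, and in LMA against MMA 1 was higher and 2 lower.

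Adherens junction genes were nearly level, with 1 of 12 past 2-fold in LLS against LMA and a median of 0.10. That gene was Cdh1, the epithelial cadherin, also counted among the pan-epithelial markers, with 1146 in LLS against 152 in LMA (log2 2.91). In LLS against MMA Cdh1 and Cdh2 were higher by 1.12 and 1.04, in LMA against MMA 1 gene was higher and 1 lower, and in T against LLS 1 gene, Nectin2, was lower, at -1.12. Tight junction scaffold and polarity genes were also mostly level: 2 of 17 were higher in LLS than in LMA, Lsr at 1.78 and Cgn at 1.16, and 2 of 19 in T than in LLS. In LMA against MMA 2 were higher, with Jam2 at 2.67, and 4 lower, with Lsr at -2.20, and in LLS against MMA 1 was higher and 2 lower. Of the cornified envelope list 7 genes were compared in T against LLS and 3 were higher, with Scel at 2.60 and Lor at 1.66. The other, Krtdap, was not well above background in LLS and was higher in T by at least 7.85 on the log2 scale. In this list 2 genes were higher and 1 lower in LLS against LMA. Against MMA, 2 of 7 were higher in LLS and 1 of 6 in LMA.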
